A study of Mus musculus with 9 samples.

Results

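The amino acid transporters examined here are the protein-coding mouse genes named Slc1a, Slc3a, Slc6a, Slc7a, Slc36a, Slc38a or Slc43a followed by a number. The names gave 61 genes, of 21785 protein-coding genes and 51717 genes in all, with 7 members of Slc1a, 2 of Slc3a, 19 of Slc6a, 15 of Slc7a, 4 of Slc36a, 11 of Slc38a and 3 of Slc43a. The cells were B16F10, a pigmented mouse melanoma line, and the question put by the design was what more or less of the receptor gene Sirpa does to their transcriptome. The control line has the genotype Non-target control, the knockdown line has reduced Sirpa and the overexpression line has raised Sirpa. All were cultured in complete DMEM with serum and antibiotics, and 3 RNA-seq libraries labelled as biological repeats were made from each. Every condition is a single line, and the labels do not tell how the lines were made, whether they are clones or pools, or whether the control carries the vector of both other lines. The p-values below therefore rest on the spread between repeats of a line, not between lines made separately.

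Amino acids cross membranes only with the help of carriers, and the carriers differ in what drives them. Slc7a light chains such as Slc7a5 and Slc7a11 work as pairs with the heavy chain encoded by Slc3a2, and as exchangers they let an amino acid in against another going out. Slc1a5, Slc38a1 and Slc38a2 use the sodium gradient to bring in small neutral amino acids such as glutamine, which Slc7a5 can then trade for leucine and other large neutral ones. Slc7a11 takes up cystine in exchange for glutamate, and in melanoma cells, as in others, cystine supplies the cysteine of glutathione and pigment cells also use cysteine to make pheomelanin. Several of these genes belong to the known targets of the transcription factors ATF4 and NRF2.

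The libraries held 16.4 to 22.38 estimated counts in units of 1000000. Sirpa followed the labels, with 292, 289 and 303 counts per 1000000 (CPM) in the control libraries, 118, 112 and 115 in the knockdown libraries and 895, 898 and 914 in the overexpression libraries. The 7 melanocyte markers summed to 16910 to 17117 CPM in control, 16500 to 17137 CPM in knockdown and 18448 to 18884 CPM in overexpression libraries. The 4 T and NK cell markers (Cd3d, Cd3e, Cd8a and Nkg7) were at 0 in all 9 libraries. So were Ptprc, Adgre1 and Fcgr1 of the myeloid list, Epcam, Krt8 and Krt18 of the epithelial list and Cdh5 and Kdr of the endothelial list. The 7 macrophage and myeloid markers summed to 1.78 to 3.25 CPM in control, 3.69 to 4.8 CPM in knockdown and 2.65 to 3.55 CPM in overexpression libraries. The 4 epithelial markers summed to at most 2.06 CPM and the 4 endothelial markers to at most 0.353 CPM in any library. The 5 fibroblast markers summed to 66.2 to 76.0 CPM in control, 21.5 to 24.9 CPM in knockdown and 81.8 to 90.6 CPM in overexpression libraries. The part of these marker lists in the results below was not tested. The library kit was non-directional, so reads of a gene and of a gene on the other strand cannot be told apart. Fewer cells expressing a gene and less RNA per cell cannot be told apart either.

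The window from 250 bases before to 50 bases after the transcription start was in RefSeq's GRCm38.p6 tables for 43 of the 61 genes, and for 18 of the 26 genes that could be tested. Windows were searched on both strands for TGATGNAA, the core of the C/EBP-ATF response element through which ATF4 acts. It was found in 1304 of 32851 mouse windows (3.97%), and with 2 or more matches in 23 windows (0.07%). The carriers with a match were Slc7a11, Slc7a7, Slc1a4 and Slc6a21. The windows of Slc7a11 (chr3:50443564-50443863, minus strand) and of Slc1a4 (chr11:20332664-20332963, minus strand) are shown as those of the tested carriers with a match that were called in a comparison below. One of the windows of Slc7a7, which was called in no comparison, holds a pair of matches too, 141 and 1 bases before the start. Capitals mark the matches, and TTGCATCA is the motif read on the opposite strand.
Slc7a11: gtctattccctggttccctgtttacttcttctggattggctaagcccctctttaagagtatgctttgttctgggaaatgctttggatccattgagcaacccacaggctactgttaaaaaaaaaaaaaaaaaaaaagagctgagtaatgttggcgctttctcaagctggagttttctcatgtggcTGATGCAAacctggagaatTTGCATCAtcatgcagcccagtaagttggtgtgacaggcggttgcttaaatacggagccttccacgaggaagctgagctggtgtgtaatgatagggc
Slc1a4: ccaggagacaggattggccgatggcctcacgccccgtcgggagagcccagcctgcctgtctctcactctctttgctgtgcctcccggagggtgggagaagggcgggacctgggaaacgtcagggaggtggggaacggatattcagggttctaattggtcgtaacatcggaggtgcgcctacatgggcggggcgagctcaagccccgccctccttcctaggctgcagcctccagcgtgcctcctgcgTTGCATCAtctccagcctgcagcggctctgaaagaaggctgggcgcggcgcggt
In the Slc7a11 window the matches lie 66 and 47 bases before the start and face each other. In the Slc1a4 window the match lies 4 bases before the start. A match describes these letters only and says nothing of binding in these cells. The antioxidant response element core TGACNNNGC was found in 12.39% of all mouse windows, and 9 of the 43 genes held it in at least 1 window. The E-box CACGTG was found in 7.15% of all windows, and again 9 of the 43 genes held it. Some genes, such as Slc6a9 and Slc7a6, have more than 1 window. Counts of genes and shares of windows are therefore not the same measure. The matches to the different motifs were counted separately, also where they overlap.

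Of the 61 carriers, 26 passed the filter on low counts and 35 did not. A carrier passed with 2 of 7 members in Slc1a, 1 of 2 in Slc3a, 5 of 19 in Slc6a, 7 of 15 in Slc7a, 2 of 4 in Slc36a, 7 of 11 in Slc38a and 2 of 3 in Slc43a. Levels are compared between genes in transcripts per 1000000 (TPM), which account for transcript length. By the mean over the 9 libraries 18 genes reached 10 TPM and 7 reached 100 TPM. These 7 were Slc38a6 (414 TPM), Slc3a2 (271), Slc6a6 (180), Slc7a5 (164), Slc38a2 (164), Slc38a10 (141) and Slc38a1 (123). The place of Slc38a6 at the top does not hold for its full-length coding transcript, as described with that gene. On full-length coding transcripts Slc3a2 was highest, at 235 TPM, and Slc38a10 stood at 97.7 TPM, under 100 TPM. The others listed stayed above 100 TPM. The lowest of the tested genes was Slc38a3, at 1.44 TPM.

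**Figure D1:**
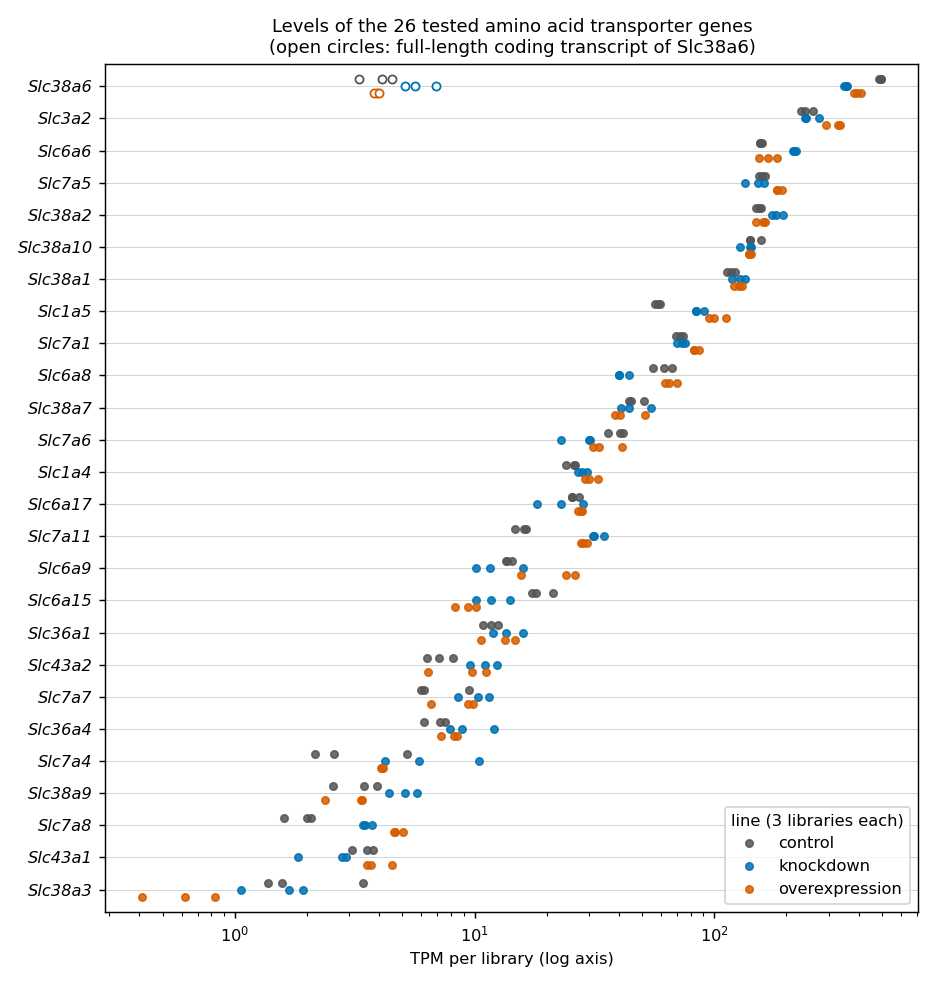
TPM of the 26 tested carriers in each of the 9 libraries on a log axis, with 3 points per line in grey (control), blue (knockdown) and orange (overexpression), ordered by mean level. Open circles give the full-length coding transcript of Slc38a6, which lies between 3.31 and 6.88 TPM, far below the filled points of the same gene.

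In the comparison of knockdown with control, 8 of the 26 tested carriers were higher and 8 lower, where 35.4% of all 13064 genes tested were called, 18.0% as higher and 17.4% as lower. In overexpression against control 8 were higher and 3 lower, against a background of 24.3% called, 13.1% as higher and 11.1% as lower. In overexpression against knockdown 9 were higher and 6 lower, against 22.1%, 11.0% and 11.1%. As shares of the 26 these are 61.5%, 42.3% and 57.7% called. The median log2 change of the 26 was -0.01, 0.06 and 0.04 in the 3 comparisons, next to -0.01, 0.0 and 0.0 over all genes tested, and the median size of the change regardless of sign was 0.34, 0.16 and 0.31, next to 0.22, 0.18 and 0.17. Called carriers lay on both sides of 0 in each comparison. Each pair of comparisons shares the libraries of a line. No call was made in any comparison for Slc36a1, Slc38a1, Slc38a7, Slc43a1, Slc7a4 and Slc7a7.

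**Figure D2:**
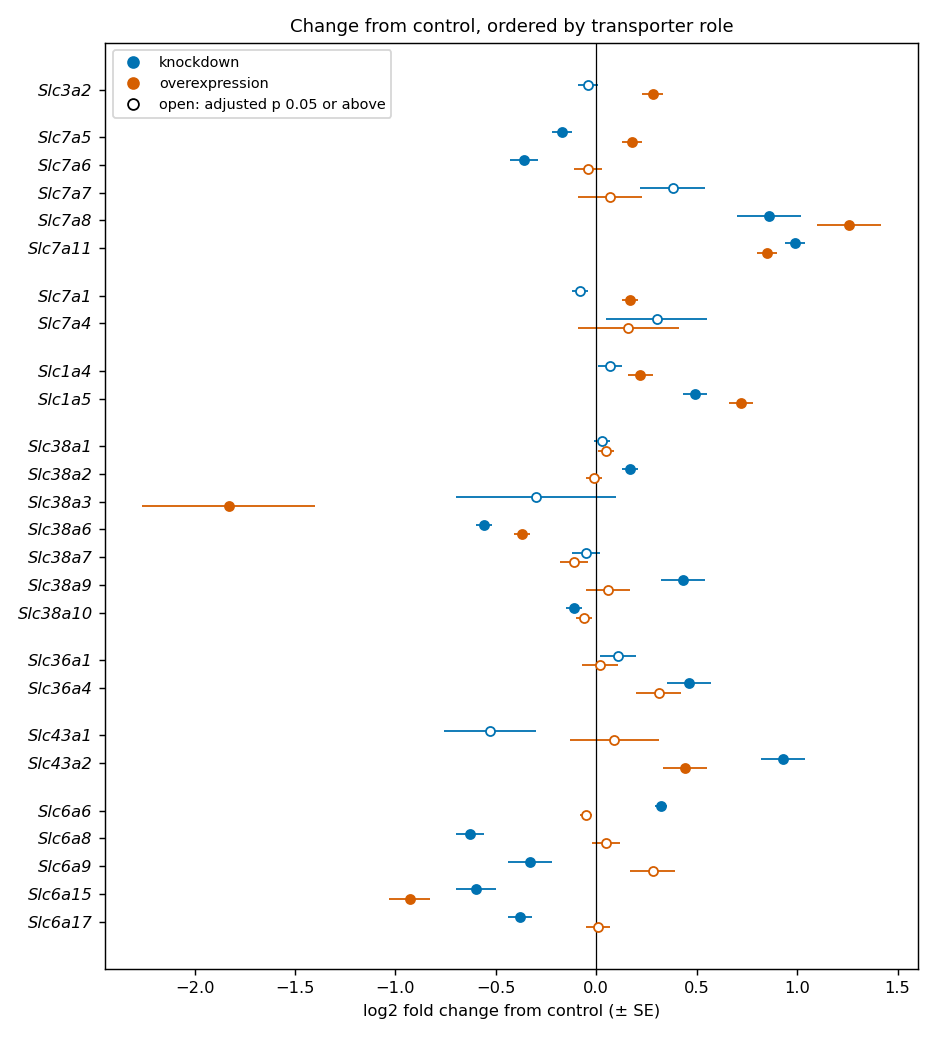
Log2 fold change from control with its SE for the 26 tested carriers in knockdown (blue) and overexpression (orange), grouped from top to bottom as heavy chain, light chains, cationic carriers, Slc1a, Slc38a, Slc36a, Slc43a and Slc6a; filled points passed an adjusted p of 0.05. Of the carriers called in both lines, Slc7a11, Slc7a8, Slc1a5 and Slc43a2 lie to the right in both and Slc6a15 and Slc38a6 to the left. Slc7a5, also called in both, lies on opposite sides.

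Slc7a11, the cystine and glutamate exchanger also called xCT, rose in both altered lines. Its libraries held 95.9, 107 and 101 CPM in control, 199, 193 and 209 CPM in knockdown and 186, 178 and 184 CPM in overexpression. Every library of the altered lines lay above every control library. The change from control was 0.99 ± 0.05 (log2, SE; 1.98-fold) in the knockdown line, with an adjusted p of 3.9e-10, and 0.85 ± 0.05 (1.81-fold) in the overexpression line, with an adjusted p of 5.6e-09. The lines share the control libraries, so these are not independent comparisons. Between the altered lines the overexpression libraries all lay below the knockdown libraries, by -0.13 ± 0.05 on the log2 scale (adjusted p 0.0601), a difference that passed the threshold without knockdown replicate 2 (0.0399) and with DESeq2 (0.0427). Nearly all counts of the gene (at least 97.5%) came from a single full-length transcript with 1506 coding bases. The level was 15.7 ± 0.906 TPM in control, 32.2 ± 2.15 TPM in knockdown and 28.5 ± 0.872 TPM in overexpression (SD, n = 3, full-length transcripts).

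Slc7a5 encodes LAT1, the exchanger that brings in leucine and other large neutral amino acids, and its transcripts moved in opposite directions in the altered lines. The control libraries held 365, 390 and 376 CPM, the knockdown libraries 311, 342 and 356 CPM and the overexpression libraries 427, 426 and 429 CPM. The 3 lines did not overlap, with overexpression highest and knockdown lowest. Against control it fell by 0.17 ± 0.05 on the log2 scale in the knockdown line (adjusted p 0.0106) and rose by 0.18 ± 0.05 in the overexpression line (adjusted p 0.00896), and overexpression was higher than knockdown by 0.35 ± 0.05 (adjusted p 5.19e-05). The fall in knockdown did not pass without control replicate 2 (adjusted p 0.067), without knockdown replicate 1 (a log2 change of -0.11, adjusted p 0.0587) or with the average transcript length as an offset (0.0601), and the rise in overexpression did not pass without control replicate 1 (0.0503). The difference between the altered lines passed in every alternative run.

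Slc3a2, the heavy chain CD98 that carries the light chains to the cell surface, was higher only where Sirpa was raised. Its libraries held 280, 269 and 293 CPM in control, 267, 294 and 261 CPM in knockdown and 337, 341 and 341 CPM in overexpression. The knockdown libraries overlapped with control, while all overexpression libraries lay above both. The change was -0.04 ± 0.05 (log2) in knockdown (adjusted p 0.594) and 0.28 ± 0.05 (1.21-fold) in overexpression (adjusted p 0.000471), and the altered lines differed by 0.31 ± 0.05 (adjusted p 0.000181). Slc3a1, the other heavy chain gene, did not pass the filter.

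**Figure D3:**
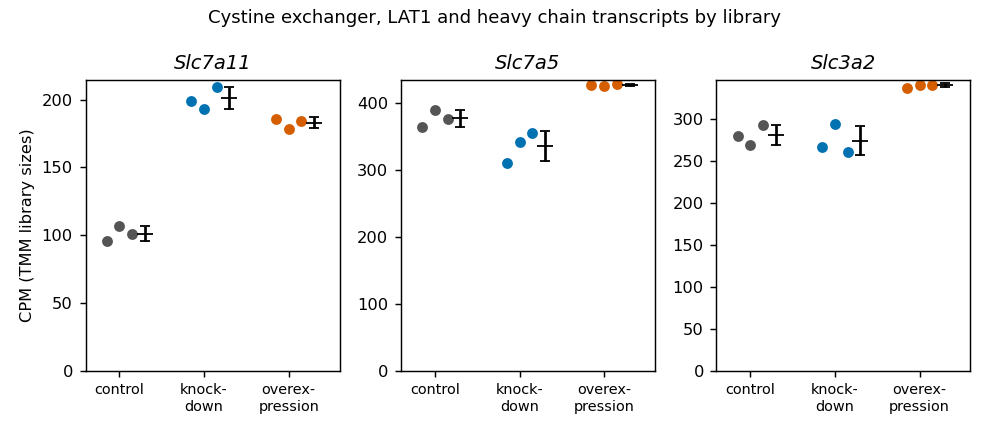
CPM of Slc7a11, Slc7a5 and Slc3a2 in each library (points), with the mean and SD of the 3 libraries of a line to the right (bars). Slc7a11 sits at 178 CPM or above in both altered lines against 107 CPM or below in control, Slc7a5 is ordered knockdown, control, overexpression, and Slc3a2 stands apart only in overexpression.

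The make-up of the light chains relative to the heavy chain followed from these values. The 6 light chains that pair with Slc3a2 (Slc7a5, Slc7a6, Slc7a7, Slc7a8, Slc7a10 and Slc7a11) summed to 217, 228 and 222 TPM in control, 208, 227 and 233 TPM in knockdown and 266, 257 and 266 TPM in overexpression. Slc7a11 made up 6.77%, 7.07% and 7.37% of that sum in control, 15%, 13.8% and 14.9% in knockdown and 10.7%, 10.8% and 11.1% in overexpression, with no overlap between any of the lines. Slc7a5 remained the main light chain in every library, at 64.5% to 72.1%. Slc7a11 stood at 0.0994 ± 0.00398 of the Slc7a5 level in control, 0.218 ± 0.0129 in knockdown and 0.154 ± 0.00186 in overexpression (SD, n = 3). The summed light chains stood at 0.919 ± 0.0693 of Slc3a2 in control, 0.89 ± 0.0781 in knockdown and 0.832 ± 0.0731 in overexpression. These ratios count all transcripts, and they overlapped. Slc3a2 there includes Slc3a2-207, which is not a full-length coding transcript. It held 4.23% of the gene's counts in control, 7.44% in knockdown and 8.43% in overexpression. On full-length coding transcripts Slc3a2 averaged 221, 221 and 262 TPM, against 243, 251 and 318 TPM on all. The ratio of the sum was not made on full-length transcripts, so no order of the lines is read from it. With 3 libraries against 3 an exact permutation test cannot give a two-sided p below 0.1, so the ratios are given without a test.

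**Figure D4:**
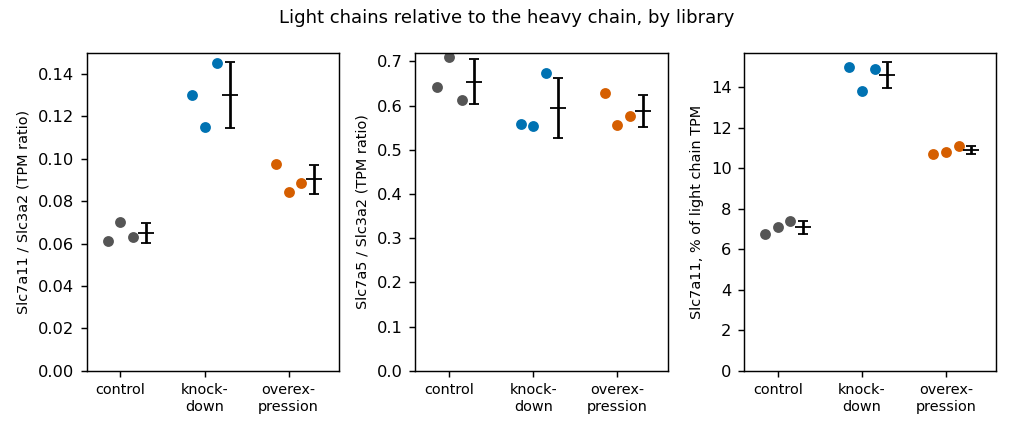
Ratio of Slc7a11 to Slc3a2 and of Slc7a5 to Slc3a2 in TPM of all transcripts, and Slc7a11 as a percentage of the 6 light chains, for each library (points), with mean and SD of 3 libraries (bars) and axes starting at 0. The share of Slc7a11 separates all 3 lines, from 7.37% or less in control to 13.8% or more in knockdown, while the ratio of Slc7a5 to Slc3a2 overlaps between lines.

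Among the remaining light chains, Slc7a8 (LAT2, a neutral amino acid exchanger) was scarce and rose in both altered lines. It held 5.58, 4.12 and 5.87 CPM in control, 10.1, 9.28 and 8.87 CPM in knockdown and 12.4, 12.1 and 13.0 CPM in overexpression, so that the lines did not overlap. The change was 0.86 ± 0.16 (log2, adjusted p 0.00068) in knockdown and 1.26 ± 0.16 (2.4-fold, adjusted p 3.1e-05) in overexpression, and the altered lines differed by 0.41 ± 0.16 (adjusted p 0.0764, and 0.0491 without control replicate 2). Slc7a6, which exchanges cationic for neutral amino acids, stood at 69.7 ± 0.228 CPM in control and 67.6 ± 3.59 CPM in overexpression (SD, n = 3) and fell to 54.2 ± 5.37 CPM in knockdown, by 0.36 ± 0.07 on the log2 scale (adjusted p 0.00124). Overexpression was above knockdown by 0.32 ± 0.07 (adjusted p 0.0055), which the transcript length offset took to 0.134. Slc7a7, its close relative, was at 7.36 ± 0.863 CPM in control, 9.59 ± 0.307 CPM in knockdown and 7.74 ± 0.624 CPM in overexpression and was called in no comparison. An exon of Oxa1l on the opposite strand overlaps 7.0% of its exon bases.

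Of the cationic carriers, Slc7a1 (CAT1, an arginine and lysine carrier) was at 364 ± 9.89 CPM in control, 344 ± 1.17 CPM in knockdown and 409 ± 3.61 CPM in overexpression. It rose with overexpression by 0.17 ± 0.04 (log2, adjusted p 0.00261), and overexpression was above knockdown by 0.25 ± 0.04 (adjusted p 0.000114). All knockdown libraries lay below control, by -0.08 ± 0.04, without passing the test (adjusted p 0.0973). Slc7a4 lay between 3.25 and 5.71 CPM and was called in no comparison. Only 48.4% of its counts lay on a full-length coding transcript, and P2rx6 on the other strand overlaps 13.34% of its exons.

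In the Slc1a family Slc1a5, the sodium-coupled exchanger ASCT2 that takes up glutamine, rose in both altered lines. The libraries held 105, 99.8 and 106 CPM in control, 145, 155 and 136 CPM in knockdown and 169, 157 and 185 CPM in overexpression. The lines did not overlap, although the lowest overexpression library was close to the highest knockdown library. The change was 0.49 ± 0.06 (log2, adjusted p 1.5e-05) in knockdown and 0.72 ± 0.06 (1.65-fold, adjusted p 4.12e-07) in overexpression. The difference between the altered lines, 0.23 ± 0.06 (adjusted p 0.011), did not pass without knockdown replicate 3 (0.061), without overexpression replicate 3 (0.0877) or when only full-length coding transcripts were counted (0.394). A transcript with a retained intron took up 12.7% to 30.6% of the counts of the gene. Its full-length coding transcript stood at 41.7 ± 2.01 TPM in control, 69.1 ± 7.61 TPM in knockdown and 72.4 ± 8.57 TPM in overexpression (SD, n = 3).

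Slc1a4 (ASCT1), which carries alanine, serine and cysteine, was at 68.3 ± 3.56 CPM in control, 71.9 ± 1.45 CPM in knockdown and 79.6 ± 3.98 CPM in overexpression (SD, n = 3). It was called in overexpression, where it rose by 0.22 ± 0.06 (log2, adjusted p 0.0181), while the change in knockdown was 0.07 ± 0.06 (adjusted p 0.408). The rise did not pass without control replicate 1 (adjusted p 0.0874), overexpression replicate 1 (0.0591) or overexpression replicate 3 (0.0972), or with the transcript length offset (0.0897). The difference between the altered lines was not called (0.15 ± 0.06, adjusted p 0.112). The glutamate carriers of the family, Slc1a1, Slc1a2, Slc1a3, Slc1a6 and Slc1a7, did not pass the filter.

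The Slc38a family holds the sodium-coupled neutral carriers. Slc38a2 (SNAT2), an inducible carrier of glutamine and alanine, held 505, 503 and 487 CPM in control, 567, 534 and 581 CPM in knockdown and 480, 505 and 504 CPM in overexpression. The knockdown libraries all lay above the others, by 0.17 ± 0.04 against control (log2, adjusted p 0.00329), whereas overexpression was at -0.01 ± 0.04 (adjusted p 0.939) and below knockdown by -0.18 ± 0.04 (adjusted p 0.00444). Its chromosomal neighbour Slc38a1 (SNAT1), with similar substrates, lay between 517 and 572 CPM in all libraries and was called in no comparison. The next gene in that row, Slc38a4, had no counts.

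Slc38a10 was at 299, 313 and 299 CPM in control, 279, 291 and 276 CPM in knockdown and 291, 299 and 284 CPM in overexpression. The fall in knockdown was small, by 0.11 ± 0.04 on the log2 scale, and passed narrowly (adjusted p 0.0467). It did not pass without any 1 library other than knockdown replicate 2, with adjusted p values from 0.0582 to 0.202. The call was also lost with RLE size factors (0.0528), without the low-count filter (0.0898) and in the fit to the 2 lines (0.0755). The same held with the transcript length offset (0.0547) and on full-length coding transcripts (0.0615). Slc38a3 (SNAT3), a glutamine carrier of liver, kidney and brain, was near the lower limit of what could be tested, with 2.57, 2.97 and 2.22 CPM in control, 2.71, 1.67 and 1.88 CPM in knockdown and 0.99, 0.53 and 0.63 CPM in overexpression. The overexpression libraries lay below all others, and the gene fell in them by 1.83 ± 0.43 on the log2 scale against control (adjusted p 0.00527). Against knockdown the log2 change was -1.52 ± 0.43 (adjusted p 0.0175), which did not pass without knockdown replicate 1 (0.0886), overexpression replicate 2 (0.0696) or overexpression replicate 3 (0.0598), or with the transcript length offset (0.129). Slc38a9, a lysosomal arginine sensor and carrier, was at 12.5 ± 0.545 CPM in control, 16.8 ± 0.543 CPM in knockdown and 13.0 ± 0.543 CPM in overexpression. It rose in knockdown by 0.43 ± 0.11 (log2, adjusted p 0.0066, and 0.0671 with the transcript length offset). It was lower in overexpression than in knockdown, with a log2 change of -0.37 ± 0.11 (adjusted p 0.024) that did not pass without knockdown replicate 1 (0.0767), overexpression replicate 1 (0.0522) or overexpression replicate 2 (0.076). Slc38a7, a lysosomal glutamine carrier, lay between 70.7 and 85 CPM and was called in no comparison.

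Slc38a6 (SNAT6) had the highest summed level of all carriers, but that sum rested on a transcript that does not encode the whole protein. The gene held 1295, 1335 and 1333 CPM in control, 920, 881 and 883 CPM in knockdown and 1037, 1062 and 970 CPM in overexpression. These values gave a fall by 0.56 ± 0.04 (log2, adjusted p 1.38e-08) in knockdown, a fall by 0.37 ± 0.04 (adjusted p 3.37e-06) in overexpression and a difference of 0.19 ± 0.04 between the altered lines (adjusted p 0.00159). Between 98.5% and 99.4% of the counts were assigned to the transcript Slc38a6-208, with 375 coding bases in 3927. Of its words of 31 bases, 78.0% also occur in transcripts of other genes. The full-length coding transcript Slc38a6-206 had 4.13, 3.31 and 4.54 TPM in control, 6.88, 5.64 and 5.13 TPM in knockdown and 3.91, 3.82 and 3.98 TPM in overexpression, with the knockdown libraries above all others. Counted on that transcript alone the change turned to 0.49 (adjusted p 0.0337) in knockdown, -0.08 (adjusted p 0.797) in overexpression and -0.57 (adjusted p 0.0242) between the altered lines. The level and the direction of Slc38a6 are thus uncertain.

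Slc36a1 and Slc36a4 were the tested members of Slc36a, and Slc36a1 is a proton-coupled carrier that moves small neutral amino acids, largely out of lysosomes. Slc36a1 lay between 37.9 and 50.9 CPM and was called in no comparison. Slc36a4 lay at 22.3 to 26.3 CPM in control, against 27.6 to 38.3 CPM in knockdown and 27.5 to 31.4 CPM in overexpression. It rose in knockdown by 0.46 ± 0.11 (log2, adjusted p 0.00483, and 0.103 with the transcript length offset). All overexpression libraries lay above control too, at 0.31 ± 0.11, which did not pass (adjusted p 0.0594). That rise passed without control replicate 2 (0.0426), knockdown replicate 1 (0.0326) or knockdown replicate 2 (0.0312). It also passed with DESeq2 (0.0478), without the low-count filter (0.0247) and in the fit to the 2 lines (0.0244). With the transcript length offset it fell to 0.15 (0.613), and it passed in no other alternative run.

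The Slc43a family holds facilitated carriers of large neutral amino acids. Slc43a2 (LAT4) held 15.7, 14.7 and 15.6 CPM in control, 27.2, 33.3 and 27.3 CPM in knockdown and 22.6, 18.2 and 21.5 CPM in overexpression, again without overlap between the lines. It rose by 0.93 ± 0.11 (log2, 1.9-fold, adjusted p 7.73e-06) in knockdown and by 0.44 ± 0.11 (adjusted p 0.00926) in overexpression, and the latter was lower, with a log2 difference of -0.49 ± 0.11 (adjusted p 0.00372). With the transcript length offset the adjusted p values were 0.0672, 0.394 and 0.451, and the rise in overexpression also did not pass without overexpression replicate 1 (0.0526). An antisense gene overlaps 9.18% of its exon bases. Slc43a1 (LAT3) was at 6.37 ± 0.539 CPM in control, 4.38 ± 1.22 CPM in knockdown and 6.76 ± 1.0 CPM in overexpression (SD, n = 3) and was called in no comparison, although overexpression against knockdown came close (0.62 ± 0.23, adjusted p 0.0623, and 0.0485 without knockdown replicate 1).

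The Slc6a family couples transport to sodium and chloride, and all 5 of its tested members were called in knockdown, 1 as higher and 4 as lower, where 35.4% of all genes tested were called, 18.0% as higher and 17.4% as lower. In overexpression against control 1 of the 5 was called, as lower, where 24.3% of all genes tested were called. Slc6a6, the taurine carrier, held 608, 617 and 613 CPM in control, 780, 764 and 748 CPM in knockdown and 587, 582 and 609 CPM in overexpression. The knockdown libraries stood far above the others, and the gene rose there by 0.32 ± 0.03 (log2, adjusted p 2.98e-06). In overexpression it was at -0.05 ± 0.03 from control (adjusted p 0.363) and lower than in knockdown, with a log2 change of -0.37 ± 0.03 (adjusted p 1.35e-06). Slc6a8, the creatine carrier, did the opposite, with 123, 117 and 114 CPM in control, 76.6, 84.1 and 68.4 CPM in knockdown and 119, 127 and 120 CPM in overexpression. It fell by 0.63 ± 0.07 on the log2 scale in knockdown (adjusted p 2.27e-06), was at 0.05 ± 0.07 in overexpression (adjusted p 0.658) and differed by 0.67 ± 0.07 between the altered lines (adjusted p 2.16e-06).

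Slc6a15, a carrier of branched-chain and other neutral amino acids, fell in both altered lines. It held 28.9, 33.2 and 32.4 CPM in control, 23.4, 19.9 and 19.0 CPM in knockdown and 16.3, 16.9 and 16.3 CPM in overexpression. The lines did not overlap, with overexpression lowest. The log2 change was -0.6 ± 0.1 in knockdown (adjusted p 0.000203) and -0.93 ± 0.1 in overexpression (adjusted p 5.05e-06). The difference between them, -0.34 ± 0.1 (adjusted p 0.0261), did not pass without knockdown replicate 1 (0.134), overexpression replicate 1 (0.0677) or overexpression replicate 3 (0.0671), with the transcript length offset (0.174) or on full-length coding transcripts (0.0596).

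Slc6a9, the glycine carrier GlyT1, held 26.4, 30.1 and 31.6 CPM in control, 24.8, 20.5 and 24.9 CPM in knockdown and 34.8, 31.6 and 40.6 CPM in overexpression. It fell in knockdown by 0.33 ± 0.11 on the log2 scale (adjusted p 0.0299), a call that did not hold without control replicate 2 (0.0857), control replicate 3 (0.133) or knockdown replicate 2 (0.128), or with the transcript length offset (0.547). In overexpression the change was 0.28 ± 0.11 (adjusted p 0.0738, and 0.04 without overexpression replicate 2), and the altered lines differed by 0.6 ± 0.11 (adjusted p 0.000795) in every alternative run. Exons of Ccdc24 on the opposite strand overlap 27.8% of the exon bases of Slc6a9, so its level is uncertain. Slc6a17, a vesicular carrier of neutral amino acids, was at 93.2 ± 3.02 CPM in control, 71.9 ± 2.35 CPM in knockdown and 89.0 to 98.0 CPM in overexpression. It fell in knockdown by 0.38 ± 0.06 on the log2 scale (adjusted p 0.000109, and 0.183 with the transcript length offset), and overexpression was above knockdown by 0.39 ± 0.06 (adjusted p 0.000185, and 0.178 with the offset).

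Summed over a family, the levels followed the leading members. Slc1a, of which Slc1a5 made up 74.5%, had 82.4, 82.7 and 86.1 TPM in control, 111, 119 and 114 TPM in knockdown and 130, 123 and 144 TPM in overexpression, all 3 lines being separate. On full-length coding transcripts the altered lines overlapped, with 89.3, 105 and 97.3 TPM in knockdown and 102, 93.1 and 114 TPM in overexpression. Both stayed above control there (67.4, 68.3 and 65.8 TPM). Slc7a, led by Slc7a5 (51.7%) and Slc7a1 (23.9%), had 298 ± 6.78 TPM in control, 304 ± 11.2 TPM in knockdown and 352 ± 6.91 TPM in overexpression (SD, n = 3), with only overexpression apart from control. Slc6a, led by Slc6a6 (61.7%), was at 277 ± 2.67 TPM in control, 305 ± 2.6 TPM in knockdown and 292 ± 18.9 TPM in overexpression, so that the rise of Slc6a6 outweighed the fall of its other tested members in the knockdown sum. Slc36a (19.1 ± 0.741, 23.3 ± 3.09 and 20.9 ± 2.17 TPM) and Slc43a (10.8 ± 1.29, 13.5 ± 1.89 and 13.2 ± 2.72 TPM) were far lower and more scattered. On full-length coding transcripts Slc43a had 7.37 ± 0.213 TPM in control, 11.9 ± 1.52 TPM in knockdown and 10.7 ± 0.67 TPM in overexpression. There all libraries of both altered lines lay above control.

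The Slc38a sum depended on Slc38a6. With all transcripts it was 962 ± 13.6 TPM in control, 853 ± 21 TPM in knockdown and 865 ± 13.1 TPM in overexpression (SD, n = 3), below control in both. With full-length coding transcripts alone it was 410 ± 6.33, 451 ± 12.3 and 415 ± 9.38 TPM, with all knockdown libraries above control and overexpression overlapping with it. All 61 genes together summed to 1238 ± 5.21 TPM in control, 1342 ± 42.0 TPM in knockdown and 1381 ± 45.4 TPM in overexpression on full-length coding transcripts. On all transcripts the sums were 1894 ± 11.8, 1864 ± 42.1 and 1993 ± 61.9 TPM.

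**Figure D5:**
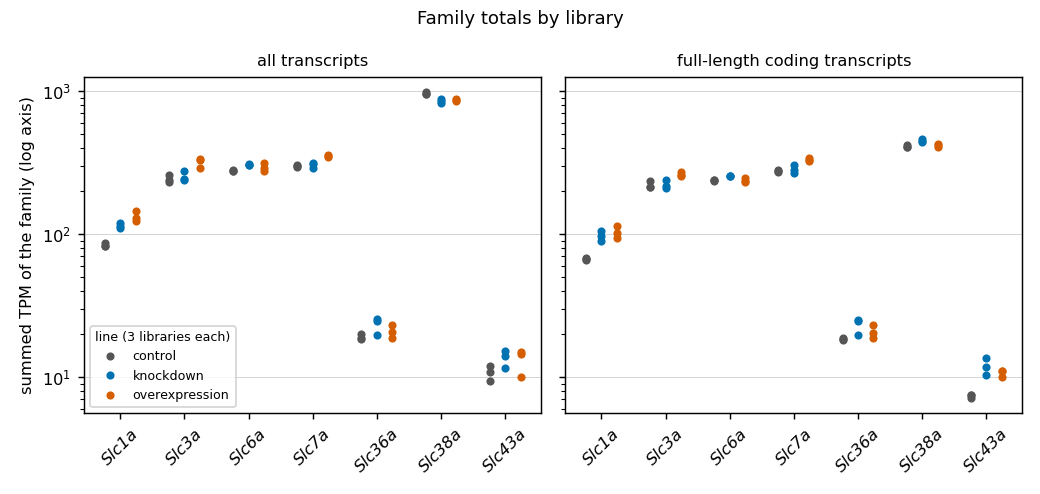
Summed TPM of each family in every library on a log axis, from all transcripts (left) and from full-length coding transcripts (right), with 3 points per line. Slc1a lies above control in both altered lines in either panel, while Slc38a lies below control on the left and, in knockdown, above it on the right.

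The 35 genes that did not pass held at most 1.08 CPM in any library, a value reached by Slc6a12. Among them 15 had no counts in any library: Slc1a3, Slc1a6, Slc1a7, Slc6a3, Slc6a5, Slc6a11, Slc6a14, Slc6a16, Slc6a18, Slc6a21, Slc7a10, Slc7a12, Slc38a4, Slc38a5 and Slc38a11. The other 20 had some counts and included Slc1a1, Slc1a2, Slc3a1, Slc6a2, Slc6a4, Slc6a7, Slc6a12, Slc6a13, Slc6a19, Slc7a2, Slc7a3, Slc7a9, Slc7a13, Slc7a14, Slc7a15, Slc36a2, Slc36a3, Slc38a8 and Slc43a3. Among the 35 are the plasma membrane carriers of dopamine, noradrenaline and serotonin. Slc36a3 had 5, 5 and 15 counts in the control libraries and 0 in the 6 others, and Slc6a12, the betaine carrier, had 0, 13 and 22 counts in control and 0 in the 6 others.

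Genes that act with the carriers were counted from lists made with the same knowledge of the data as the members. Of all 13064 genes tested, 35.4% were called in knockdown, 18.0% as higher and 17.4% as lower. In overexpression 24.3% were called, 13.1% as higher and 11.1% as lower. Of 20 tested enzymes of glutathione and glutamate metabolism, 6 were higher and 1 lower in knockdown, about the share of all genes. In overexpression 11 of them were higher and 0 lower. Their median log2 changes were 0.07 and 0.14. Gclm, a subunit of the enzyme that begins glutathione synthesis from cysteine, rose by 0.87 ± 0.05 (log2, adjusted p 5.48e-09) and 0.85 ± 0.05 (adjusted p 1.78e-08). The other genes with the lowest p in this list were Gpx4 in knockdown (0.34 ± 0.04) and Cth in overexpression (0.84 ± 0.08). Of 24 tested genes of the ATF4 and amino acid response, 12 were higher and 4 lower in knockdown, led by Shmt2 (-0.71 ± 0.04) and Eif2ak3 (0.6 ± 0.06), and 16 higher and 1 lower in overexpression, led by Atf5 (1.06 ± 0.06) and Mthfd2 (0.55 ± 0.04). The median log2 change of that list was 0.17 and 0.32. Atf4 itself was at 0.07 ± 0.04 in knockdown (adjusted p 0.208) and rose by 0.3 ± 0.04 in overexpression (adjusted p 6.66e-05).

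Of 36 tested genes of amino acid sensing and mTORC1, 8 were higher and 3 lower in knockdown, where 35.4% of all genes tested were called. In overexpression 8 were higher and 2 lower, where 24.3% of all genes tested were called. Both counts are near those shares. The list was led in both by Lamtor3, a part of the lysosomal anchor of mTORC1 (1.2 ± 0.08 and 1.26 ± 0.08). Next was the leucine sensor Sesn2 (0.58 ± 0.06 and 0.42 ± 0.06). The medians were 0.06 and 0.03. Of 16 regulators of the carrier genes 1 was higher and 7 lower in knockdown, and 1 higher and 6 lower in overexpression, with medians of -0.06 and 0.0. The ubiquitin ligase Nedd4l led in both (-0.68 ± 0.05 and -0.61 ± 0.05), followed by Mitf in knockdown (-0.38 ± 0.04) and Atf4 in overexpression. Of 15 other amino acid carriers 2 were higher and 4 lower in knockdown, led by Mfsd12, a melanosomal and lysosomal cysteine importer (0.61 ± 0.1), and Sfxn1, a mitochondrial serine carrier (0.31 ± 0.05). In overexpression 1 was higher and 1 lower, Sfxn1 (0.21 ± 0.05) and the peptide carrier Slc15a2 (-0.55 ± 0.16), and the medians were -0.08 and -0.06. The background for each of these counts in knockdown is 35.4% of all genes called, 18.0% as higher and 17.4% as lower. In overexpression it is 24.3%, 13.1% and 11.1%. The called share of the other carriers was near it in knockdown and below it in overexpression.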

How the data were processed

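RNA of 9 B16F10 cultures was sequenced as non-directional paired-end reads of 150 bases, per the labels' protocols. Salmon 1.4.0, DESeq2 1.34.0, MultiQC 1.11 and the build mm39 are named in the submitters' processing notes. The annotation release is not given in the sources used here. The deposited tables give, per the file headers, an estimated count and a TPM for each transcript. The TPM values, as deposited by the authors, are scaled by effective length to 1000000 per library. Salmon divides reads among similar transcripts, which makes single transcripts and genes with shared sequence less certain.

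Transcript identifiers were matched to GENCODE M21 (137161 of 140789, 97.42%). Transcripts without a match, with 0.554% to 0.654% of a library's counts, were left out. Counts were summed per gene, rounded, filtered with filterByExpr (13064 genes) and fitted over all 9 libraries with edgeR 4.0.16 (R 4.3.3, TMM, quasi-likelihood, line as the only term). Benjamini-Hochberg adjustment ran over all genes, with calls at 0.05 and no fold minimum. CPM use TMM library sizes. A full-length coding transcript has at least 80% of the coding length of its gene's longest, an alternative chosen after seeing the data. Other alternatives were DESeq2 1.42.0, limma-voom (limma 3.58.1), RLE size factors, other filters, a transcript length offset, fits to 2 lines, a replicate block and leaving out each library. Libraries of a line differed by 4.84 to 11.48 chi-square per degree of freedom, so none was a copy.

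The carriers and lists were chosen with earlier results of these data known. Values in each library are given for Slc7a11, Slc7a5, Slc3a2 and for called carriers with a log2 change of at least 0.5 in a called comparison or a TPM among the 8 highest; other tested carriers are grouped by role. For each list the 2 genes with the lowest adjusted p in each comparison with control are named. Slc36a3 and Slc6a12, and Atf4 in knockdown, were given after their values were seen. RefSeq windows are of GRCm38.p6, another build than that of the deposited tables. The depth of 16.4 to 22.38 counts per library, in units of 1000000, limits what can be said of carriers under about 1 CPM. The values of 1 carrier that did not pass the filter are not reported here.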

Additional observations from a re-analysis of the deposited data

Results flagged for a closer look

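For 15 of the 26 tested carriers the change from control differed between the altered lines, tested as overexpression against knockdown in the edgeR fit across all genes with an adjusted p under 0.05, a comparison in which 22.1% of all 13064 genes tested were called. The overexpression line had the higher change for Slc6a8 (by 0.67 on the log2 scale), Slc6a9 (0.6), Slc6a17 (0.39), Slc7a5 (0.35), Slc7a6 (0.32), Slc3a2 (0.31), Slc7a1 (0.25), Slc1a5 (0.23) and Slc38a6 (0.19). It had the lower change for Slc38a3 (-1.52), Slc43a2 (-0.49), Slc6a6 (-0.37), Slc38a9 (-0.37), Slc6a15 (-0.34) and Slc38a2 (-0.18). For Slc7a5 the changes from control were on opposite sides of 0 and both called. For Slc6a6, Slc6a8, Slc6a9, Slc6a17, Slc7a6, Slc38a2 and Slc38a9 the knockdown change was called and the overexpression change was not, and for Slc3a2, Slc7a1 and Slc38a3 the reverse held. For Slc1a5, Slc38a6, Slc43a2 and Slc6a15 both were called in the same direction. The value of Slc38a6 turned to -0.57 on its full-length coding transcript.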

How the results depend on the processing

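Of 42 calls of a carrier in a comparison, 22 kept direction and threshold in every alternative and 20 lost it in at least 1; among the former are Slc7a11, Slc1a5, Slc7a8 and Slc6a15 against control in both altered lines. DESeq2, limma-voom, the filter of 1 CPM and the replicate block each lost 0 calls. Under the replicate block 4423, 2957 and 2712 genes were called (knockdown and overexpression against control, then overexpression against knockdown). Deviations of log CPM from the line mean correlated at -0.093 to 0.127 between same-numbered libraries of different lines. Between other-numbered libraries they correlated at -0.131 to 0.093. These ranges overlap, and pairing by number was not tested otherwise. The transcript length offset lost 14 calls, leaving 5 of 26 carriers higher and 4 lower in knockdown and 3 lower in overexpression against knockdown. Of 13064 genes, 1433 were then higher and 1361 (10.42%) lower in knockdown, and 669 (5.12%) were lower in overexpression against knockdown. In either direction 2794, 1577 and 1423 genes were called in the 3 comparisons. Without the low-count filter 5 of 46 carriers were lower in overexpression than in control, as were 1557 of 21445 genes. Leaving out a library gave 5 to 8 carriers lower in knockdown (5 without control replicate 2) and 3 to 7 lower in overexpression against knockdown (3 without knockdown replicate 1). In these runs 27 to 29 carriers were tested. Of all genes tested in them, 13.95% to 16.54% were lower in knockdown and 8.7% to 10.57% lower in overexpression against knockdown. On full-length coding transcripts, chosen after seeing the data, Slc38a6 reversed to 0.49 in knockdown against control and to -0.57 in overexpression against knockdown; log2 family ratios in knockdown became 0.54 for Slc1a, 0.14 for Slc38a (from -0.17), 0.69 for Slc43a and 0.11 for Slc6a, and in overexpression 0.02 for Slc38a (from -0.15) and 0.24 for Slc3a. Each condition is 1 line, and carriers near 1 CPM, such as Slc38a3, rest on few counts.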
